A study of Mus musculus with 72 samples.

Results

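The acute-phase protein genes described here are Saa1, Saa2, Saa3, Saa4, Orm1, Orm2, Hp, Hpx, Lcn2 and Apcs, chosen by symbol and matched to the Ensembl identifiers of the count table. They are 10 of the 55416 genes counted, and all 10 had a row in each tissue. RNA was sequenced from the epididymal white adipose tissue (eWAT), liver and pituitary of 24 male FVB.129P2 mice, in 72 libraries with 6 mice in each of 4 groups. FED offspring had dams that ate freely, and CR20 offspring had dams given 20% less food from embryonic day 15 through lactation. The offspring were weaned at day 21 and were put at 8 weeks of age on a control diet with 10% of energy from fat (CTRL) or on one with 45% (HFD). The labels allow 10 or 16 weeks on the diet, and the methods name the shorter time for the mice that were sequenced. The groups are therefore FED-CTRL, FED-HFD, CR20-CTRL and CR20-HFD, with no transgene, deletion or drug in any of them. The 3 tissues of a mouse carry 1 animal number, which is how mice are named below. Which mice shared a litter is not given in the labels used here, so the p-values measure the spread between mice only.

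Acute-phase proteins are plasma proteins whose production changes during inflammation or injury. Hepatocytes secrete most of them when interleukin 6, interleukin 1 and tumour necrosis factor reach the liver and activate the transcription factors STAT3, C/EBP beta and NF-kB. Some of the genes are also used outside the liver: Saa3 is the serum amyloid A form typical of macrophages and adipose tissue, and Hp and Lcn2 are known products of adipose tissue. The encoded proteins fall into 5 kinds. Serum amyloid A proteins (Saa1, Saa2, Saa3 and the constitutive form Saa4) travel on high-density lipoprotein. Orosomucoids (Orm1, Orm2) bind drugs and lipids. Haptoglobin (Hp) captures free haemoglobin and hemopexin (Hpx) captures free haem. Lipocalin 2 (Lcn2) withholds iron from bacteria by binding their siderophores. Serum amyloid P (Apcs) is a pentraxin and the main acute-phase protein of that family in the mouse.

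The 4 Saa genes lie in 1 cluster on chromosome 7 of GRCm39, with Saa3 (ENSMUSG00000040026) at chr7:46361422-46365576, Saa4 (ENSMUSG00000040017) at chr7:46377406-46382035, Saa1 (ENSMUSG00000074115) at chr7:46389916-46392547 and Saa2 (ENSMUSG00000057465) at chr7:46401214-46403737. Saa2 is on the plus strand and the other 3 on the minus strand. Hpx (ENSMUSG00000030895) is on the same chromosome at chr7:105240817-105249344, minus strand. Orm1 (ENSMUSG00000039196, chr4:63261052-63272189) and Orm2 (ENSMUSG00000061540, chr4:63280686-63284115) are neighbours on the plus strand of chromosome 4, and Orm1 overlaps the gene Gm11212 on the same strand. Hp (ENSMUSG00000031722) is at chr8:110301759-110305804, Lcn2 (ENSMUSG00000026822) at chr2:32274645-32278264 and Apcs (ENSMUSG00000026542) at chr1:172721528-172722611, all on the minus strand. All 10 are protein-coding in the GENCODE M39 annotation. No stretch of 100 bases was shared between the first annotated transcripts of the Saa genes. Orm1 and Orm2 shared 6.47% of the 100-base windows of the Orm1 transcript, so a small part of their reads could be split by the counting.

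Promoter sequences, the 250 bases before the annotated start, were given for 8 members in the RefSeq tables of GRCm38.p6. A C/EBP-type match (TTGCNNAA or its reverse complement TTNNGCAA) was found in 7 of the 8, namely all but Apcs, against 9.56% of the 32851 promoters searched. An NF-kB-type match (GGG, any 5 bases and CC, or GG, any 5 bases and CCC) was found in Saa1, Saa2, Saa4 and Lcn2, against 45.8% of the promoters. A STAT3-type match (TTCNNNGAA, the same on both strands) was found only in Apcs of the 8, against 7.02%. These are matches of letters and not measured sites. The promoters of Saa1 and Saa2 were 94.8% identical, those of Saa1 and Saa3 48.9%. Below are these 3, which belong to liver-restricted (Saa1, Saa2) and to shared (Saa3) serum amyloid A genes, and that of Hpx, the member with calls in eWAT and almost no adipose level in most mice. Capitals mark the C/EBP-type match. They span chr7:46742981-46743230 (Saa1, minus strand), chr7:46751583-46751832 (Saa2, plus), chr7:46715677-46715926 (Saa3, minus) and chr7:105600117-105600366 (Hpx, minus), all in GRCm38.p6 and written 5′ to 3′.
Saa1: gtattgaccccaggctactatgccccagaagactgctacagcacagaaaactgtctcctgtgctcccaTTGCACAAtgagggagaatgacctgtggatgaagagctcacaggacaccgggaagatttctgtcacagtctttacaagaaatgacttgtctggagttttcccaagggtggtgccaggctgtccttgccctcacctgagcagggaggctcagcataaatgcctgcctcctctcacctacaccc
Saa2: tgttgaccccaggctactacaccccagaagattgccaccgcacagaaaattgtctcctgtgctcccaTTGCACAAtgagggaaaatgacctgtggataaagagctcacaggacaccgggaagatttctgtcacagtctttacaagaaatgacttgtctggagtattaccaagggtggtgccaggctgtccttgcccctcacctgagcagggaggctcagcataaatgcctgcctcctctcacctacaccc
Saa3: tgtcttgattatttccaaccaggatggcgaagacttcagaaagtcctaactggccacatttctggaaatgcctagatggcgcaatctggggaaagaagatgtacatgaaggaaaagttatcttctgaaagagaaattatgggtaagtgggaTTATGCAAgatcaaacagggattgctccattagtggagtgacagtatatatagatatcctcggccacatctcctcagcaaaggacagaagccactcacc
Hpx: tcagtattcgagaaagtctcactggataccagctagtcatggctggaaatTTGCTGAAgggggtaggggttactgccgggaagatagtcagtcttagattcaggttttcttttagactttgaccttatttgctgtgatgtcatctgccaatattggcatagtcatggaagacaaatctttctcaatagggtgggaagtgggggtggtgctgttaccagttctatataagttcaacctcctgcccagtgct
The match lay at -182 to -175 from the start in Saa1, at -183 to -176 in Saa2, at -99 to -92 in Saa3 and at -200 to -193 in Hpx.

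Total counts per library ranged from 9842813 to 27601208, so that a count of 3, the floor used below, corresponds to 0.109 to 0.305 CPM, the usual count scaled to a library total that is the same for all libraries. Levels are given in CPM, and fold changes are log2FC ± SE from edgeR's quasi-likelihood test with TMM factors. In eWAT, 3 libraries stood apart in the hepatocyte marker Alb, with 505 CPM in FED-HFD mouse 10, 482 in CR20-CTRL mouse 5 and 103 in FED-HFD mouse 13, against 2.38 to 39.1 in the other 21. The summed level of 6 hepatocyte markers was 657, 579 and 134 CPM in these libraries and 3.13 to 41.9 in the others, and a seventh marker, Cyp2e1, was left out of the sum because adipose tissue also expresses it. The epididymal gene Adam7 reached 132 CPM in the eWAT of CR20-CTRL mouse 4 and 61.8 in mouse 5, and at most 4.30 in the other 22. Another epididymal gene, Crisp1, was at 0 in mice 4 and 5 but at 22.1 CPM in CR20-HFD mouse 6, the mouse with 4.30 CPM of Adam7. Mouse 6 was kept in the fits without the libraries with the highest Adam7 level. The defining markers were otherwise where the labels put them: the sum of 7 hepatocyte markers was at least 54438 CPM in every liver and at most 978 in eWAT, and the sum of 6 adipocyte markers was at least 10306 CPM in every eWAT library and at most 13.7 in liver. Results of the members that rest on the 3 libraries with the most Alb or the 2 with the most Adam7 are given with and without them.

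The members divided into genes counted almost only in liver and genes counted in both liver and eWAT. Saa1 ranged from 44.0 to 346 CPM in liver (median 80.6), but only 50 counts were found over all 24 eWAT libraries together, 19 of them with 3 counts or fewer. Saa2 ranged from 16.8 to 137 CPM in liver (median 36.02), with 34 counts in eWAT. Saa4, the constitutive form, ranged from 293 to 856 CPM in liver (median 478), with 116 counts in eWAT. Apcs ranged from 68.4 to 332 CPM in liver (median 114), with 15 counts in eWAT and 21 of the eWAT libraries at 0. Hpx was the most abundant member in liver, from 4340 to 15508 CPM (median 6033), and its median in eWAT was 0.848 CPM (range 0.159 to 48.0).

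**Figure D1:**
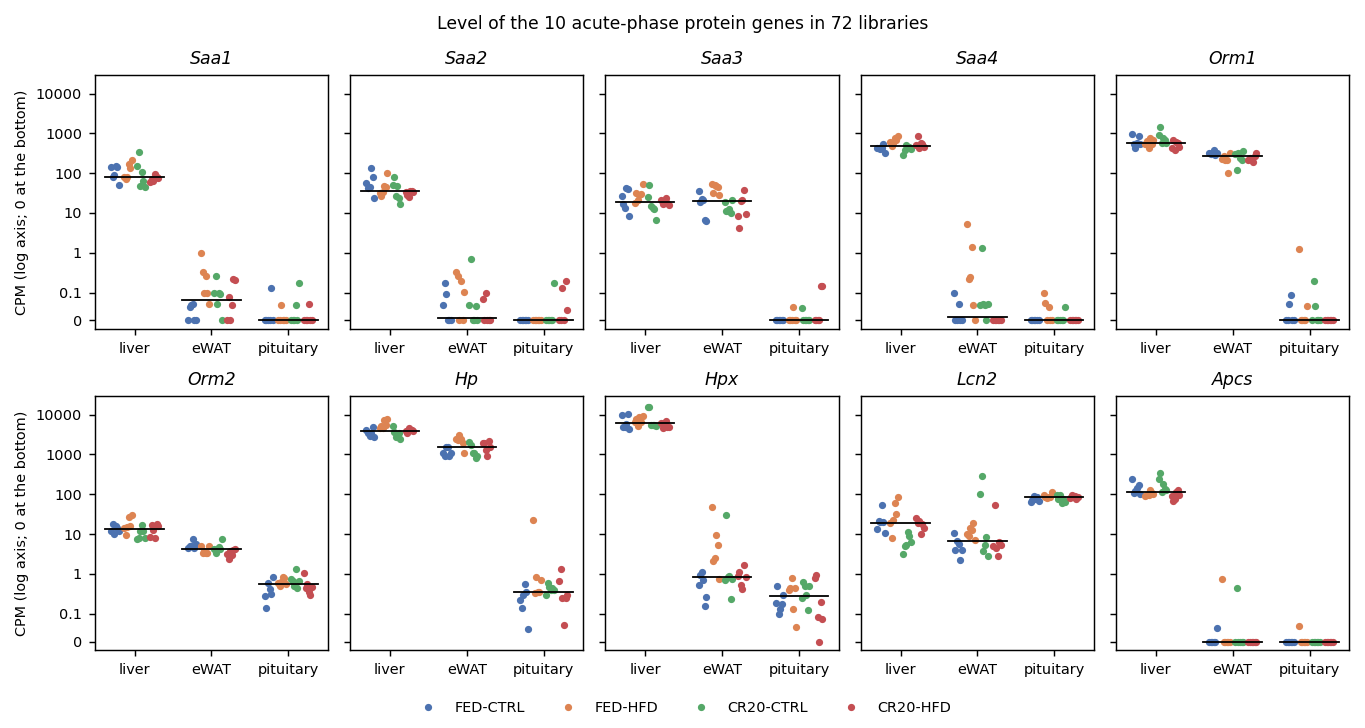
CPM of the 10 members in every library, on a log axis, by tissue (liver, eWAT, pituitary), with libraries at 0 at the bottom of each panel and a black line at the median of 24. Saa1, Saa2, Saa4, Apcs and Hpx stand high in liver only, Saa3, Orm1, Orm2 and Hp are seen in liver and eWAT, and Lcn2 has its highest median, 83.8 CPM, in the pituitary.

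Hp, Orm1, Orm2, Lcn2 and Saa3 had clear levels in both tissues. Hp ranged from 2374 to 7689 CPM in liver (median 3942) and from 832 to 3039 in eWAT (median 1511). Orm1 ranged from 384 to 1448 CPM in liver (median 588) and from 100.3 to 379 in eWAT (median 272). Orm2 was lower, with a median of 13.3 CPM in liver (7.39 to 29.6) and 4.26 in eWAT (2.33 to 7.55). Within a mouse, the liver level of Hp was a median of 2.55 times the eWAT level (1.54 to 6.90), that of Orm1 2.25 times (1.37 to 12.4) and that of Orm2 2.78 times (1.06 to 8.21), and each was higher in liver in 24 of 24 mice. Saa3 was the member with like levels in the 2 tissues: its median was 19.3 CPM in liver (6.65 to 54.8) and 20.5 in eWAT (4.201 to 52.6), and it was higher in liver in 13 of 24 mice. Lcn2 had a median of 18.5 CPM in liver (3.22 to 83.2) and 6.60 in eWAT (2.22 to 294), and was higher in liver in 20 of 24 mice.

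Per kilobase of exon, the order of the medians in liver was Hpx (4012 RPKM), Hp (2316), Orm1 (429), Saa4 (152), Apcs (117) and Saa1 (30.6), with the other 4 below. The ranges of Hpx and Hp overlapped, as did those of Saa4, Apcs and Saa1, while Orm1 overlapped neither Hp above it nor Saa4 below it. In eWAT the order was Hp (888 RPKM), Orm1 (199) and Saa3 (6.58), and Hpx was the lowest of the 6 members tested there (0.564). In the pituitary Lcn2 led with a median of 32.0 RPKM, followed by Orm2 (0.706), Hp (0.206) and Hpx (0.180). The same leading genes were found in each tissue with the length of the first annotated transcript.

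A joint fit of the 48 liver and eWAT libraries compared the 2 tissues for each gene, without using the pairing of the tissues within a mouse. By the study's methods, liver RNA for sequencing came from a Zymo column protocol and eWAT RNA from RNAzol RT. Tissue and extraction therefore cannot be told apart in this comparison. Of the 10 members, 9 were higher in liver (adjusted p at most 0.055 and log2FC of at least 1), against 21.8% of the 17003 genes tested that were higher, 30.4% that were lower and 52.2% in either direction. Saa1, Saa2, Saa4 and Apcs did not pass the filter on low counts in eWAT alone and entered through their liver counts. Their direction was thus fixed by the filter, and both this count and the median below include them. The median log2FC of liver over eWAT was 6.23 over the members and -0.08 over all genes. The log2FC was 13.30 ± 0.43 for Saa4, 12.89 ± 0.32 for Apcs, 12.38 ± 0.55 for Hpx, 10.91 ± 0.32 for Saa1 and 10.00 ± 0.32 for Saa2. The fitted values of Saa1, Saa2, Saa4 and Apcs depend on the prior count, because most eWAT libraries had 3 counts or fewer. With those libraries set to 3 counts, the liver level was a median of 559 times the eWAT level for Saa1, 228 times for Saa2, 2899 times for Saa4, 769 times for Apcs and 6386 times for Hpx, and higher in 24 of 24 mice for all 5. The log2FC was 2.47 ± 0.12 for Orm2, 2.24 ± 0.12 for Hp, 2.12 ± 0.13 for Orm1 and 1.08 ± 0.36 for Lcn2 (adjusted p = 0.00527). Saa3 had 0.98 ± 0.22, just under the fold threshold (adjusted p = 5.75e-05), and passed it in 8 of the 24 fits that left out 1 mouse. The smaller values depended on the scaling: with library totals in place of TMM the median of all genes moved to -0.89, the called genes turned from 41.8% to 22.3% higher in liver, and the values became 1.66 for Orm2, 1.42 for Hp, 1.31 for Orm1, 0.21 for Lcn2 (adjusted p = 0.583) and 0.16 for Saa3.

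In eWAT, 6 members passed the filter on low counts (Saa3, Orm1, Orm2, Hp, Hpx and Lcn2), and the other 4 were not tested there. FED-HFD vs FED-CTRL asks what the HFD did in offspring of normally fed dams. Hpx, the haem scavenger, was upregulated, and 1 of 6 members called compares with 4.7% of all 15964 genes tested (4.18% higher and 0.514% lower). The median log2FC was 0.95 over the 6 members and 0.00 over all genes. Fewer cells of a type and less RNA per cell cannot be told apart in such bulk tissue.

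Hpx was at 0.159 to 1.14 CPM in FED-CTRL (median 0.623) and at 0.761 to 48.0 in FED-HFD (median 3.86). Mouse 10 had 48.0 CPM, mouse 13 had 9.25, mouse 23 had 5.16, mouse 12 had 2.55 and mouse 11 had 2.14, all above the highest FED-CTRL mouse. The lowest, mouse 40, was within the FED-CTRL range. The log2FC was 4.11 ± 1.09 (adjusted p = 0.0175, exact two-sided permutation p = 0.00649). The mice with the most Hpx, 10 and 13, are those with 505 and 103 CPM of Alb. Without the 3 libraries with the highest Alb level, Hpx still passed both thresholds, with a log2FC of 2.01 ± 0.49 (adjusted p = 0.0105), and without mouse 10 alone it was 2.55 (adjusted p = 0.0752). With voom and no quality weights it was 2.83 (adjusted p = 0.0683). Mouse 23, with 5.16 CPM of Hpx, had 2.38 CPM of Alb, the lowest of all 24 eWAT libraries, 0 of the hepatocyte markers Apob and Cps1, and 492 CPM of the macrophage gene Adgre1. The part of hepatocyte RNA or of macrophage number in the Hpx values was not tested.

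**Figure D2:**
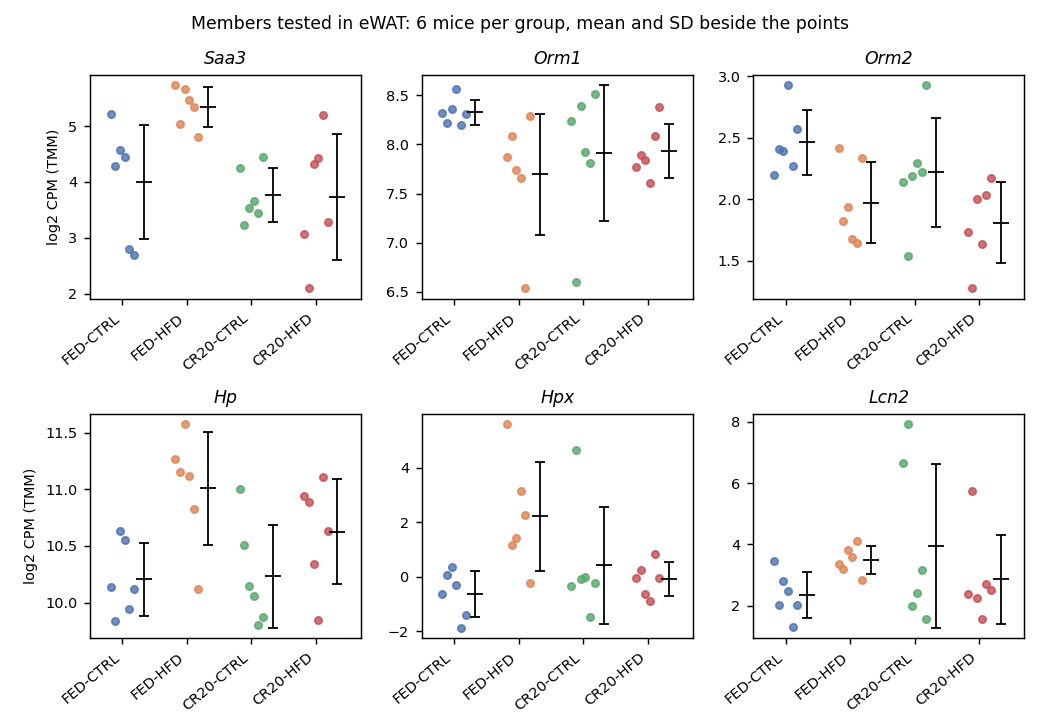
Log2 CPM (TMM, prior count of 2) of the 6 members tested in eWAT, 1 point per mouse, with the mean and SD of 6 mice beside each group. Saa3 and Hpx are high in FED-HFD, and the widest spreads, of Hpx and Lcn2 in CR20-CTRL, come from 1 and 2 mice.

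Saa3, the adipose and macrophage form of serum amyloid A, had 6.30 to 36.2 CPM in FED-CTRL (median 20.5) and 28.0 to 52.6 in FED-HFD (median 45.4). The ranges overlapped, with 5 of 6 FED-CTRL mice below all FED-HFD mice. The log2FC of 1.11 ± 0.42 missed the threshold by edgeR (adjusted p = 0.0879, exact permutation p = 0.00649). It passed with limma voom and quality weights (1.52, adjusted p = 0.00523), with voom alone (1.33, adjusted p = 0.0303) and with DESeq2 (1.12, adjusted p = 0.0464). Without FED-CTRL mouse 14 it also passed (1.41, adjusted p = 0.0463).

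Hp, haptoglobin, was at 905 to 1546 CPM in FED-CTRL (median 1102) and at 1114 to 3039 in FED-HFD (median 2323), with mouse 40 again within the FED-CTRL range. Its log2FC of 0.84 ± 0.24 had an adjusted p of 0.0270 but was under the fold threshold. The orosomucoids had values below 0. Orm1 was at 278 to 379 CPM in FED-CTRL and 100.3 to 315 in FED-HFD (log2FC -0.54 ± 0.24, adjusted p = 0.162, exact permutation p = 0.00649). Orm2 was at 4.39 to 7.55 CPM in FED-CTRL and 3.28 to 5.15 in FED-HFD (log2FC -0.49 ± 0.21, adjusted p = 0.133). Neither passed the test. Lcn2 was at 2.22 to 10.7 CPM in FED-CTRL and 7.05 to 18.8 in FED-HFD, with a log2FC of 1.05 (adjusted p = 0.498, exact permutation p = 0.0130). Its SE of 0.91 came from a fit that includes the 2 CR20-CTRL mice with very high Lcn2 described below.

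Macrophage markers moved in the same comparison. Of 7 such genes, 5 were called higher in FED-HFD than in FED-CTRL, against 4.18% of all genes tested. They were Cd68 (log2FC 2.11), Mpeg1 (2.02), Adgre1 (1.79), Lyz2 (1.40) and Itgam (1.06). The summed level of the 7 was 1369 to 2050 CPM in FED-CTRL, 2304 to 12130 in FED-HFD, 935 to 2309 in CR20-CTRL and 1140 to 2034 in CR20-HFD. Among the named protein-coding genes, those whose level followed that of Saa3 most closely over the 24 eWAT libraries were Itgam (Spearman rho 0.89), F10 (0.88), Chi3l1 (0.87), Cd44 (0.86) and Itgb7 (0.85), out of 13899 compared. The rho of Saa3 with the members was 0.47 for Hpx, 0.43 for Hp and 0.31 for Lcn2. These are descriptions over libraries that share the group structure, and the part of macrophage number in the values of Saa3 and Hpx was not tested.

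CR20-HFD vs FED-HFD asks whether maternal restriction changed the state on the HFD. It shares the FED-HFD libraries with the comparison above, so the 2 are not independent. Hpx and Saa3 were downregulated in CR20-HFD, 2 of 6 members, against 5.49% of all genes tested (4.78% lower). Hpx was at 0.428 to 1.68 CPM in CR20-HFD (median 0.848) and 0.761 to 48.0 in FED-HFD. The log2FC was -3.62 ± 1.06 (adjusted p = 0.0244, exact permutation p = 0.0130). It was -1.51 ± 0.48 (adjusted p = 0.0362) without the libraries with the highest Alb level and -2.05 (adjusted p = 0.130) without mouse 10. The call was also lost with voom and quality weights (-2.18, adjusted p = 0.0562), with voom alone (-2.25, adjusted p = 0.103) and with ranges of animal number as a covariate (-2.24, adjusted p = 0.122).

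Saa3 was at 4.201 to 36.8 CPM in CR20-HFD (median 14.5) and 28.0 to 52.6 in FED-HFD (median 45.4), with 1 CR20-HFD mouse, 45, inside the FED-HFD range. Its log2FC was -1.30 ± 0.42 (adjusted p = 0.0378, exact permutation p = 0.00649). The call is close to the threshold. The log2FC was -1.18 (adjusted p = 0.0894) without the 3 libraries with the highest Alb level. With ranges of animal number as a covariate it was -1.23 (adjusted p = 0.0791). The call was also lost without a filter (-1.31, adjusted p = 0.0588) and with only the groups compared (-1.30, adjusted p = 0.0555). It was lost in 7 of the 24 fits without 1 library, those of FED-HFD mice 10, 12, 13 and 23 and CR20-HFD mice 6, 7 and 46 (adjusted p at most 0.0822). The other 4 members lay between -0.39 (Hp) and 0.16 (Orm1). Of the 7 macrophage genes, 5 were called lower in the CR20-HFD mice, against 4.78% of all genes tested, among them Mpeg1 (-2.40), Cd68 (-2.25) and Adgre1 (-2.08).

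In the comparisons with CR20-CTRL, the value of Hpx turned on mouse 5 and that of Lcn2 on mice 4 and 5 together. By edgeR, 0 of 6 members and 0% of all genes were called in CR20-CTRL vs FED-CTRL, with 2 members and 1180 genes at an unadjusted p under 0.05. Lcn2 had 294 CPM in mouse 5 and 100.1 in mouse 4 of CR20-CTRL. The other 4 CR20-CTRL mice were within the FED-CTRL range, and the median of CR20-CTRL was 6.78 CPM. The log2FC of 3.45 ± 0.96 (adjusted p = 0.241, exact permutation p = 0.262) became -0.11 without mice 4 and 5. DESeq2 called it (adjusted p = 0.0159), the only member among the 147 genes it called there, all of them higher in CR20-CTRL. These are the mice with 132 and 61.8 CPM of Adam7. Lcn2 stood at 2.22 to 53.7 CPM in the other 22 libraries, and its highest value there, in CR20-HFD mouse 7, came with an Adam7 level of 0. Hpx had 29.9 CPM in CR20-CTRL mouse 5, the mouse with 482 CPM of Alb, and at most 1.14 in FED-CTRL. Its log2FC of 2.85 ± 1.06 (adjusted p = 0.452) became 0.10 without the libraries with the highest Alb level.

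**Figure D3:**
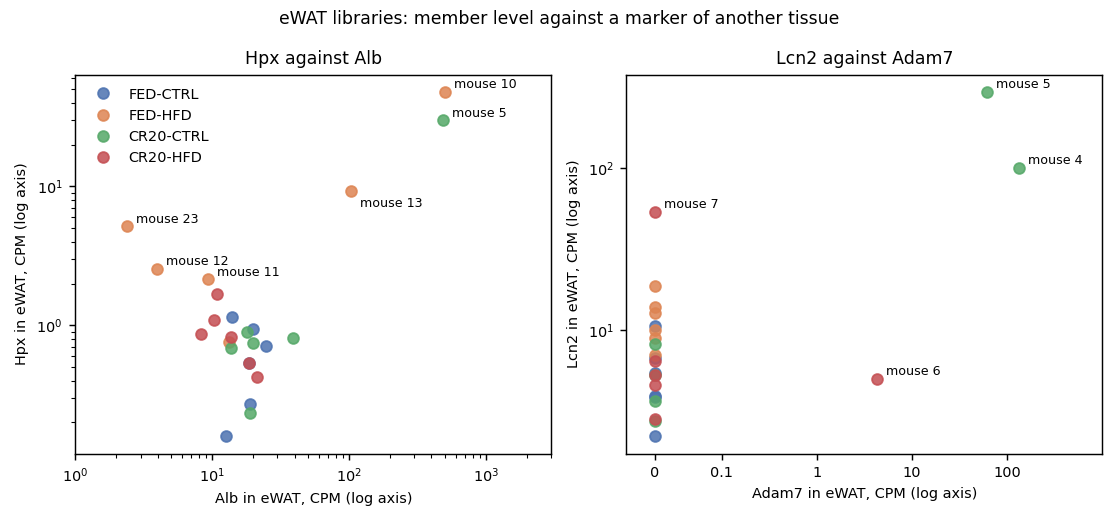
Left, Hpx against the hepatocyte gene Alb, and right, Lcn2 against the epididymal gene Adam7, both in CPM in the 24 eWAT libraries, 1 point per mouse coloured by group. The highest Hpx levels (48.0, 29.9 and 9.25 CPM) are in the 3 libraries with the most Alb, and the highest Lcn2 levels (294 and 100.1 CPM) in the 2 libraries with the most Adam7.

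CR20-HFD vs CR20-CTRL gave 0 called members and 0% of all genes by edgeR, also with 0 members called by voom or DESeq2, and 3 members and 962 genes at an unadjusted p under 0.05. These were Lcn2 (-2.27 ± 0.91, adjusted p = 0.795), Hpx (-2.36 ± 1.03, adjusted p = 0.820) and Orm2 (-0.45 ± 0.21, adjusted p = 0.828). Without mice 4 and 5 the sign of Lcn2 turned (1.29) and that of Hpx as well (0.39). The interaction, the response to HFD in CR20 minus that in FED offspring, was called for 1 of 6 members, Hpx (-6.47 ± 1.495, adjusted p = 0.0327), against 2.27% of all genes (0.0438% higher and 2.23% lower). It was -1.62 (adjusted p = 0.243) without the 3 libraries with the highest Alb level, -3.72 (adjusted p = 0.168) without those with the highest Adam7 level, and it lost the call in 10 of the 24 fits without 1 library, among them CR20-CTRL mouse 5 (-3.72, adjusted p = 0.108). Lcn2 had -3.32 ± 1.28 (adjusted p = 0.176).

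In liver, all 10 members passed the filter. FED-HFD vs FED-CTRL called 0 of them by edgeR, voom or DESeq2, against 0.0943% of the 13787 genes tested (0.0218% higher and 0.0725% lower). At an unadjusted p under 0.05 there were 2 members and 918 genes (6.66%). Both members were higher on the HFD by less than the fold threshold. Hp was at 2760 to 4804 CPM in FED-CTRL (median 3416) and 4665 to 7689 in FED-HFD (median 5190), with 1 FED-CTRL mouse above the 2 lowest FED-HFD mice (log2FC 0.71 ± 0.18, adjusted p = 0.209, exact permutation p = 0.00433). Saa4 was at 327 to 540 CPM in FED-CTRL (median 423) and 492 to 854 in FED-HFD (median 653; log2FC 0.65 ± 0.17, adjusted p = 0.214). Its exact permutation p of 0.00216, on the log2 CPM scale with TMM factors as for all such tests, is the smallest that 6 against 6 mice can give. The other 8 members lay between -0.48 (Apcs) and 0.66 (Lcn2).

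**Figure D4:**
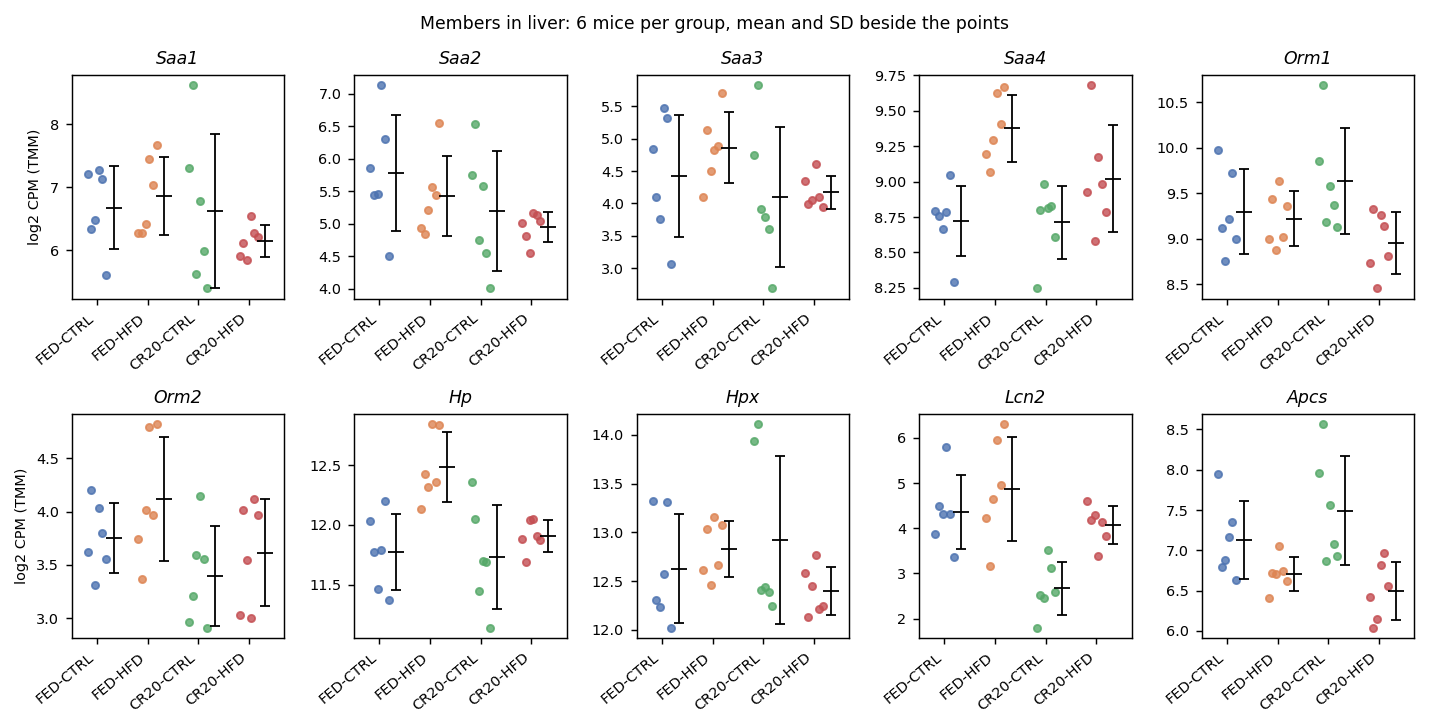
Log2 CPM (TMM, prior count of 2) of the 10 members in liver, 1 point per mouse, with the mean and SD of 6 mice beside each group. Hp and Saa4 are highest on average in FED-HFD, Lcn2 is lowest in CR20-CTRL, and the spread of Saa1, Saa2, Saa3, Hp, Hpx and Lcn2 is smallest in CR20-HFD.

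Between the HFD groups, the log2FC of CR20-HFD vs FED-HFD was below 0 for all 10 members in liver, from -1.12 to -0.19, with a median of -0.56 against 0.01 for all genes. None was called, as for every gene tested (0%, with 2 members and 3.58% of genes at an unadjusted p under 0.05), and voom and DESeq2 called 0 members too. Hp was at 3446 to 4617 CPM in CR20-HFD (median 3945), below every FED-HFD mouse (-0.60 ± 0.18, adjusted p = 1.00, exact permutation p = 0.00216). No other member tested had CPM ranges without overlap between 2 groups. The share of all genes without overlap was not computed, so this is a description of Hp only. Lcn2 was at 10.3 to 24.7 CPM in CR20-HFD and 8.13 to 83.2 in FED-HFD (-1.12 ± 0.42, adjusted p = 1.00), and only 3 of the FED-HFD mice exceeded all CR20-HFD mice.

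CR20-HFD vs CR20-CTRL gave the only call among the members in liver, 1 of 10 against 0.377% of all genes (0.0798% higher and 0.297% lower). Apcs, the pentraxin, was at 116 to 332 CPM in CR20-CTRL (median 162) and 68.4 to 130 in CR20-HFD (median 92.2). Its log2FC of -1.10 ± 0.26 (adjusted p = 0.0542, exact permutation p = 0.00649) passed by a small margin. The call was lost in 19 of the 24 fits without 1 library (adjusted p at most 0.169), being kept without FED-CTRL mouse 14, CR20-HFD mouse 45 and CR20-CTRL mice 33, 48 and 49, and also with voom (-0.73 with quality weights, -1.00 without), library totals (-0.99) and only the groups compared (adjusted p = 0.272). At an unadjusted p under 0.05 there were 5 of 10 members and 1320 genes (9.57%), and the 4 members other than Apcs did not pass the adjusted test. Lcn2 was at 3.22 to 11.1 CPM in CR20-CTRL (median 5.75) and 10.3 to 24.7 in CR20-HFD (1.36 ± 0.43, adjusted p = 0.230). Orm1 was at 577 to 1448 CPM in CR20-CTRL and 384 to 668 in CR20-HFD (-0.75 ± 0.25, adjusted p = 0.250). Hpx (-0.73 ± 0.30, adjusted p = 0.448) and Saa1 (-0.93 ± 0.42, adjusted p = 0.4995) had wide ranges in CR20-CTRL. Without mouse 5, Orm1 was -0.46 (adjusted p = 0.680), Hpx -0.43 and Saa1 -0.23.

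In CR20-CTRL vs FED-CTRL, 0 of 10 members and 0% of all genes were called by edgeR, with 1 member and 299 genes at an unadjusted p under 0.05 and 0 members by voom or DESeq2. The member was Lcn2, at 10.51 to 54.2 CPM in FED-CTRL (median 20.0) and 3.22 to 11.1 in CR20-CTRL, where only the highest mouse reached the FED-CTRL range (-1.82 ± 0.44, adjusted p = 0.999, exact permutation p = 0.00433). Mice 4 and 5, with the most Lcn2 in eWAT, had 3.22 and 4.92 CPM of it in liver. The interaction in liver was called for 0 members and 0% of genes (242 genes at an unadjusted p under 0.05, and 0 members by voom or DESeq2), and Hp had -0.58 ± 0.25 (adjusted p = 0.999).

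Within the liver, the members did not rank the mice alike. CR20-CTRL mouse 5 had the highest Saa1 (346 CPM), Orm1 (1448), Hpx (15508) and Apcs (332) of all 24 mice but 390 CPM of Saa4 and 7.98 of Orm2, among the lowest. CR20-CTRL mouse 4 had 15111 CPM of Hpx and was the lowest of 24 in Saa4 (293), Orm2 (7.39) and Lcn2 (3.22). These livers also had the lowest and the third lowest Alb levels of the 24 (34338 and 48112 CPM). FED-HFD mouse 40, in contrast, was the highest in Saa3 (54.8 CPM), Orm2 (29.6), Hp (7689) and Lcn2 (83.2). Saa1 was the gene of 12324 compared whose liver level was most like that of Saa2 (rho 0.94 over 24 libraries). The non-members most like Saa2 were Rnf114 (0.74), Faf1 (0.73), Vma21 (0.73), Isg15 (0.72) and Plekhb1 (0.72), and the rho was 0.72 for Saa3, 0.61 for Hpx, 0.56 for Apcs and 0.12 for Saa4, the constitutive form.

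The joint fit tested whether the response differed between the tissues. Saa1, Saa2, Saa4 and Apcs did not pass the filter in eWAT alone and entered this fit through their liver counts. For the response to HFD in FED mice, eWAT minus liver, 2 of 10 members were called higher, against 2.15% of all genes (2.28% in either direction). For Hpx the difference was 4.00 ± 1.06 (adjusted p = 0.0291, exact permutation p = 0.0173), from a log2FC of 4.11 in eWAT and 0.13 in liver. For Saa4 it was 4.33 ± 1.18 (adjusted p = 0.0363), with an exact permutation p of 0.206. With the mouse as a block, which uses the fact that both tissues came from the same animals, neither passed (Hpx 2.71, adjusted p = 0.178, and Saa4 3.35, adjusted p = 0.338). Without the 3 libraries with the highest Alb level, Hpx was 1.94 (adjusted p = 0.0480) and Saa4 1.42 (adjusted p = 0.368). The Saa4 value rests on very few counts: the 6 FED-HFD libraries of eWAT held 94 counts, of which 10 remained without mice 10 and 13.

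**Figure D5:**
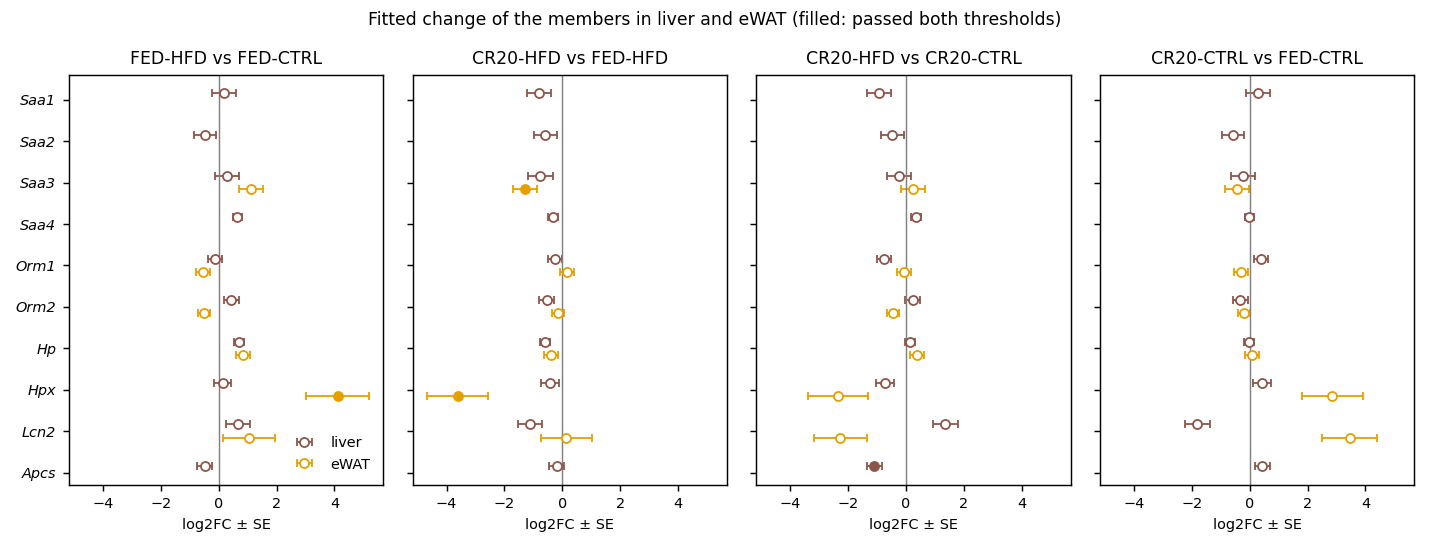
Log2FC and SE of each member in liver and eWAT for 4 comparisons between groups, with filled points for values that passed both thresholds. Hpx in eWAT is farthest from 0 between the FED groups (4.11) and between the HFD groups (-3.62), while the liver values of all members lie between -1.82 and 1.36.

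For CR20-HFD minus FED-HFD, eWAT minus liver, Saa4 was called, 1 of 10 members against 2.53% of genes that were lower and 2.71% in either direction (-6.49 ± 1.499, adjusted p = 0.0105, exact permutation p = 0.0433). With the mouse as a block it was -5.46 (adjusted p = 0.173). Without the 3 libraries with the highest Alb level it was -3.60 ± 0.97 (adjusted p = 0.0309). That value passed both thresholds, but its eWAT part rests on 10 counts in FED-HFD, and Saa4 entered this fit through its liver counts. In eWAT, where Saa4 was not tested alone, the 94 Saa4 counts of FED-HFD stand against 0 in CR20-HFD. With CR20-HFD set to a floor of 3 counts over the group, the ratio was 31.5. It was 4.52 without mice 10 and 13, from the 10 counts that remained in FED-HFD. These ratios do not include the counting error of FED-HFD or the spread between mice. Hpx had -3.17 ± 1.05 (adjusted p = 0.0888), which passed without the libraries with the highest Adam7 level (-3.16, adjusted p = 0.00908) and without mouse 5 (adjusted p = 0.0103) or mouse 40 (adjusted p = 0.0524). It was -1.12 ± 0.56 (adjusted p = 0.290) without the libraries with the highest Alb level, -1.57 (adjusted p = 0.422) without mouse 10 and -1.91 with the mouse as a block.

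The 6 members tested in both tissues were also compared across mice, as the correlation between liver and eWAT log2 CPM over 24 mice. Of the 6 relations computed, only that of Hp had a permutation p under 0.05, with Pearson r of 0.43 (p = 0.0364) and Spearman rho of 0.46 (p = 0.0249). Adjusted over the 6 relations, these were 0.218 and 0.149, so it did not pass. Without the 2 mice farthest from the liver median r was 0.52. With the values taken as deviations from their group means, r was -0.01 and rho -0.05, so the relation did not hold within groups. The rho of the other 5 members was between -0.06 (Orm1) and 0.27 (Saa3).

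In the pituitary, Lcn2 was at 61.1 to 117 CPM (median 83.8), above its liver median of 18.5, while Saa1, Saa2, Saa3, Saa4, Orm1 and Apcs did not pass the filter. By edgeR, 0 of the 4 members tested and 0% of 16657 genes were called in each of the 5 comparisons (adjusted p under 0.05), with 1127 to 2887 genes at an unadjusted p under 0.05 and 0 members called by voom or DESeq2. Lcn2 was at 62.2 to 88.8 CPM in FED-CTRL and 82.2 to 117 in FED-HFD (log2FC 0.30 ± 0.12, adjusted p = 0.395, exact permutation p = 0.0584). Hp was at 22.0 CPM in FED-HFD mouse 10 and at most 1.31 in the other 23 pituitaries, which gave 3.93 ± 0.89 in FED-HFD vs FED-CTRL (adjusted p = 0.150) and a log2FC of 0.92 without this library. The same pituitary library held 14.1 CPM of Adipoq, 11.6 of Plin1 and 65.1 of Fabp4, against at most 0.252, 0.385 and 10.47 in the others. The part of adipose RNA in this Hp value was not tested. In the comparison of the HFD groups, Hp had -3.16 ± 0.83 (adjusted p = 0.388), -0.17 without mouse 10, and -3.80 ± 1.33 in the interaction (adjusted p = 0.339). Orm2 had -1.07 ± 0.52 in the interaction (adjusted p = 0.452).

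The other genes of the acute-phase pathway were taken from lists by role. In eWAT, 16 of 24 other positive acute-phase genes were tested in FED-HFD vs FED-CTRL, with 2 called higher, 1 lower and a median log2FC of 0.36. Of all genes tested in this comparison, 4.18% were called higher and 0.514% lower. Lrg1, a secreted leucine-rich glycoprotein, rose (1.36, adjusted p = 0.00314). Serpina3k, a hepatic serine protease inhibitor, was higher (3.45, adjusted p = 0.0486), but its FED-HFD median of 1.46 CPM was near that of FED-CTRL (1.36), and its highest value was 70.7 CPM. Without the 3 libraries with the highest Alb level it was -0.41 (adjusted p = 0.523). Orm3, the third mouse orosomucoid, fell, from 14.4 to 24.7 CPM in FED-CTRL to 0.695 to 10.46 in FED-HFD, with no overlap (-1.86, adjusted p = 0.00817). The share of all genes without overlap was not computed. Orm3 was higher in CR20-HFD than in FED-HFD (1.36, adjusted p = 0.0358), in the direction opposite to Saa3 and Hpx.

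Of 10 negative acute-phase genes, hepatic plasma proteins whose production drops in inflammation, 8 were tested and 5 were called higher in FED-HFD eWAT (Apoa2, Apoa1, Ttr, Ahsg and Fetub), while Rbp4, also made by adipocytes, was lower (-1.21). The shares over all genes are the 4.18% higher and 0.514% lower given above, for the lists that follow as well. Apoa1 reached 108 CPM in FED-HFD with a median of 0.738, so that single libraries carried its value. Ttr, at 50.2 CPM in mouse 10 and 12.9 in mouse 13, had a median of 0.396. Without the 3 libraries with the highest Alb level none of these 5 was called: Apoa2 was 1.68 (adjusted p = 0.173), Apoa1 0.89 (0.533), Ttr 0.71 (0.655), Ahsg 1.30 (0.0555) and Fetub 1.40 (0.0848), while Rbp4 still passed (-1.19). Alb, the gene by which these libraries were chosen, turned from 2.52 (adjusted p = 0.120) to -1.36 (adjusted p = 0.0265) and was then called lower. Among 4 of 9 cytokine ligands tested, Tnf was higher in FED-HFD (1.00, adjusted p = 0.0508), and 1 of 8 receptors, Tnfrsf1b (1.04), rose with it. Of 6 feedback genes and inhibitors, Il1rn, the interleukin 1 receptor antagonist, rose (3.65, adjusted p = 0.00297), from 3.11 to 6.79 CPM in FED-CTRL to 12.4 to 248 in FED-HFD. Of 11 binding partners of acute-phase proteins, Hmox1, which degrades haem, rose (1.54, adjusted p = 0.00828). None of 10 tested signal and transcription factors was called, with a median of 0.08. In CR20-HFD vs FED-HFD, Tnf (-1.27), Tnfrsf1b (-1.27), Il1rn (-3.51), Hmox1 (-1.56), Serpina3k (-3.44) and the 5 negative acute-phase genes were lower. Without those 3 libraries Ahsg (-1.30, adjusted p = 0.0495) was the only one of these 5 still called, and Serpina3k was 0.42 (adjusted p = 0.483), while Tnf, Tnfrsf1b, Il1rn, Hmox1 and, higher in CR20-HFD, Orm3 remained called. In liver, no gene of these lists passed edgeR's test in FED-HFD vs FED-CTRL, out of 22 other positive and 10 negative acute-phase genes, 3 ligands, 8 receptors, 13 signal and transcription factors, 6 feedback genes and 9 binding partners tested.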

How the data were processed

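RNA-seq counts per Ensembl gene were the measurement. Per the study's methods and the submitters' processing notes, the authors trimmed the reads with Trimmomatic, aligned them with STAR to GRCm39, counted them with featureCounts and deposited the whole-number counts without normalization. Groups and animal numbers came from the labels. The number pairs the tissues of a mouse.

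Each tissue was fitted with edgeR 4.0.16 in R 4.3.3 (filterByExpr, TMM, glmQLFTest, 24 libraries, 4 groups, Benjamini-Hochberg adjustment over all genes tested). Liver and eWAT were fitted jointly as 48 libraries. A call needed an adjusted p of at most 0.055 and an absolute log2FC of at least 1, or under 0.05 alone in the pituitary. SE is the absolute log2FC divided by the square root of F. Exact permutation tests ran over 924 splits of 6 against 6 mice. Correlations used 100000 permutations. All tests were two-sided, and the fits were tested on simulated data. Of the genes, 54749 were named from GENCODE M39.

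Alternatives were limma 3.58.1 voom, DESeq2 1.42.0, other scaling, filters and covariates, and left-out libraries. The members and lists were chosen with earlier results of these data known. The fits without the eWAT libraries with the highest Alb or Adam7 level were added after seeing the data. All 10 members were named in every tissue. Log2FC with SE were given for those called or with an unadjusted p under 0.05, and list genes were named if called, at most 4 per list by smallest p (all where 5 were called), with defining markers. List genes are given with all libraries unless stated. The floor of 3 counts covers counting error only, while the SE from the quasi-likelihood test also includes the spread between mice.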

Additional observations from a re-analysis of the deposited data

Results flagged for a closer look

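In 80 groups of 6 mice, 5 held a mouse far from the other 5, and chance gives about 1 in 20. Orm1 in eWAT was low in FED-HFD mouse 23 (100.27 CPM, against a median of 231 in the others) and in CR20-CTRL mouse 5 (117 against 300.4). Hp was high in the pituitary of FED-HFD mouse 10 (22.0 CPM against 0.345), Hpx in the eWAT of CR20-CTRL mouse 5 (29.9 against 0.744) and Lcn2 in the eWAT of CR20-HFD mouse 7 (53.7 against 5.04). Mouse 23 also had a low Adipoq level in eWAT (697 CPM) and 1031 CPM of the macrophage gene Cd68, and mouse 5 had 1402 CPM of Adipoq. Their part in the Orm1 values was not tested.

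A further 4 values passed a test of the difference between groups or tissues in the main fits. The response of Hpx to HFD in eWAT differed between CR20 and FED offspring (-6.47, adjusted p = 0.0327). The response to HFD in FED mice differed between eWAT and liver for Hpx (4.00, adjusted p = 0.0291) and Saa4 (4.33, adjusted p = 0.0363), and CR20-HFD minus FED-HFD differed between the tissues for Saa4 (-6.49, adjusted p = 0.0105). These joint fits did not use the pairing of the tissues within a mouse, and Saa4 entered them through its liver counts. With the mouse as a block, the response was not called for Hpx (adjusted p = 0.178) or Saa4 (adjusted p = 0.338). CR20-HFD minus FED-HFD was then not called for Saa4 either (adjusted p = 0.173). All 4 include the eWAT libraries of FED-HFD mice 10 and 13, and the interaction also that of CR20-CTRL mouse 5. These are the 3 libraries with the highest Alb level, and the values without them are given with the results.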

How the results depend on the processing

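In eWAT FED-HFD vs FED-CTRL, 1 member was called, and 2 with a minimum log2FC of 0.58, with voom and quality weights or with DESeq2, 3 without a filter, and 0 to 2 with each library left out. In eWAT CR20-HFD vs FED-HFD, 2 were called, and 1 with voom (with or without quality weights), with only the groups compared or without the libraries with the highest Alb level, 0 with ranges of animal number as a covariate, and 0 to 2 with each library left out. For the interaction in eWAT, 1 was called, and 0 with either voom fit, the covariate or without the libraries with the highest Alb or Adam7 level, 2 without a filter, and 0 to 1 with each library left out. DESeq2 called 1 member in eWAT CR20-CTRL vs FED-CTRL. In liver CR20-HFD vs CR20-CTRL, 1 was called, and 0 with either voom fit, library totals, only the groups compared or the covariate, and 0 to 1 with each library left out. In the pituitary, 1 member (Hp) was called without a filter in FED-HFD vs FED-CTRL (adjusted p = 0.0036) and in CR20-HFD vs FED-HFD (adjusted p = 0.0249), and 0 to 1 in the former with each library left out.

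With the mouse as a replicate block, 0 members were called for the response to HFD in FED mice, eWAT minus liver, and 0 for CR20-HFD minus FED-HFD, against 2 and 1, and the block changed no other call. Without the libraries with the highest Alb level the former was 1, and without those with the highest Adam7 level the latter was 2. With each mouse left out the ranges were 0 to 2 and 1 to 2, and 8 to 10 for liver minus eWAT. Among the 6 correlations, 1 had a rho with p under 0.05, and 0 after removal of group means and 2 without the 2 farthest mice.

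The sign turned in few fits. In eWAT CR20-HFD vs CR20-CTRL it did for Lcn2 without the libraries with the highest Adam7 level (1.29) and for Hpx with voom and quality weights (0.37), without the libraries with the highest Alb level (0.39) or Adam7 level (0.39), and with a library left out (-2.63 to 0.39). Without the libraries with the highest Adam7 level Lcn2 turned to -0.11 in CR20-CTRL vs FED-CTRL and 0.24 in the interaction. For Apcs, eWAT minus liver, the response turned to -0.39 without the libraries with the highest Alb level (-0.46 to 3.98 with a mouse left out) and CR20-HFD minus FED-HFD to 0.18 (-3.49 to 0.26). Removing libraries also removes mice, and causes beyond that were not tested. The depth of eWAT limits Saa1, Saa2, Saa4 and Apcs, which were near the floor of 3 counts there.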
